A study of Rattus norvegicus with 18 samples.

Results

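A set of 10 genes that tune Wnt and hedgehog signalling was followed through inflamed and normal rat joint lining. They are Rspo2, Ptk7, Sfrp1, Sfrp2, Sfrp4, Dkk3 and Wif1 on the Wnt side and Hhip, Ptch1 and Gli1 on the hedgehog side. Members were the gene probes whose name on the array was one of these symbols or a current synonym, which gave 18 probes for 10 genes, of 35069 genes or transcripts on the array. Of these probes 15 were bright enough to be kept, and all 10 genes were among the 23607 tested. Rspo2, Ptk7 and Hhip had been picked because the cold model differed in them, so in any comparison that holds the AIA-cold arrays their values are given as a description with no test.

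Synovium was taken from the knees of male rats, 6 to 8 weeks old, of Lewis, an inbred strain in which adjuvant arthritis is studied. The 18 arrays fell into 6 groups of 3. AIA-cold-WTD and AIA-hot-WTD were the cold and hot models of adjuvant-induced arthritis (AIA) treated with WTD, a Chinese herbal formula. AIA-cold and AIA-hot were these models without it, AIA was the plain arthritis model, and control was normal rats. No group carried a genetic change per the labels, and the making of the models and the dosing of WTD are not given in the sources used here. A letter G, Z or D in the titles of WTD arrays has no explanation in the labels. The letter was G for AIA-cold-WTD replicate 1 and Z for the other arrays of that group. For AIA-hot-WTD it was D for replicate 1, G for replicate 2 and Z for replicate 3. Arrays with different letters were fitted as replicates of the same group. Any difference between AIA-cold-WTD replicate 1 and the rest of its group therefore cannot be told apart from the letter. The study had 6 rats per group, and its arms given other compounds are not analysed here. Arrays are called biological replicates, and the labels do not say whether the numbers in the titles name animals. The p-values therefore measure only the spread between these samples.

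Wnt proteins bind frizzled receptors and, in the canonical branch, keep β-catenin from being degraded so that it can activate target genes with TCF factors. R-spondins such as Rspo2 raise the number of frizzled receptors at the cell surface, while the secreted frizzled-related proteins and Wif1 bind Wnt proteins outside the cell. Hedgehog proteins bind the receptor Ptch1, which releases Smo and leads to activation of GLI transcription factors, and Ptch1, Gli1 and Hhip are themselves classic targets of the pathway. In joints both pathways are known for their roles in cartilage, bone and stromal cells.

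All values are log2 signals relative to the 75th percentile of the array, so they compare arrays for a gene and not genes with each other. Control replicate 1 was dimmer than the rest: its percentile was 68.9 signal units, where the other 17 arrays had 201 to 331, and 43.3% of its gene probes passed the scanner's background test, where the others had 56.4% to 76.6%. The mean of 9 tested cartilage markers was 4.94 on control replicate 1 and between -1.88 and 1.75 on the other 17 arrays, and its collagen gene Col2a1 stood at 11.40. The 6 tested markers of the synovial lining, of 7 listed, were well above background on all 18 arrays, and their mean lay between 1.98 and 3.32. Results against control are given with and without control replicate 1 where it moves them. The number of arrays limits the precision. In bulk tissue, fewer cells of a type and less RNA per cell cannot be told apart.

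Each level rests on a probe of 60 bases, and the opening 30 bases of the probes for the 3 picked genes and for Wif1, the member with the widest range, show which stretch of transcript was read. The Rspo2 probe lies on the minus strand at chr7:78775367-78775426 of the rat build rn4. The Hhip probe lies on the plus strand at chr19:29840368-29840427 and the Wif1 probe on the plus strand at chr7:60399964-60400023. The Ptk7 probe carries no genome position in the array's annotation and starts at base 3640 of its transcript. Exon and UTR positions were not used here.
Rspo2 probe: aagtataggataagccagtttgtatataga
Ptk7 probe: cctaagtgcctggcagatgaagtgttcggg
Hhip probe: ccttcctagggttttaaaatgttattgtgc
Wif1 probe: ggttcgagttacgccgagttcacagccttt

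Promoters from RefSeq (build GRCr8) were at hand for 5 of the 10 members, namely Ptk7, Hhip, Sfrp2, Wif1 and Ptch1. The 250 bases before the start were searched on both strands for 2 motifs that do not overlap each other. The GLI motif was TGGGTGGTC, which reads GACCACCCA on the other strand. The TCF motif was ATCAAAG, and its reverse complement was searched too. Ptch1 was the single member of the 5 with the GLI motif, which begins 172 bases before the start, and 0 of the 5 held the TCF motif. Among 33469 promoters, 0.338% held the GLI motif and 3.15% the TCF motif. The windows of Hhip (plus strand, chr19:44767788-44768037) and Ptch1 (plus strand, chr17:1555321-1555570) are shown because both genes are hedgehog targets and their windows differ in this motif. A match is a description of the letters only. Capitals mark the GLI motif.
Hhip promoter: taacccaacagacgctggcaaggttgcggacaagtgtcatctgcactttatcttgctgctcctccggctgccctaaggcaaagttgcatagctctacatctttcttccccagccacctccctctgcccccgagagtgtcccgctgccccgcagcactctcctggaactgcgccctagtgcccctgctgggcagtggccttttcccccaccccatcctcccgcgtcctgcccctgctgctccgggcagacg
Ptch1 promoter: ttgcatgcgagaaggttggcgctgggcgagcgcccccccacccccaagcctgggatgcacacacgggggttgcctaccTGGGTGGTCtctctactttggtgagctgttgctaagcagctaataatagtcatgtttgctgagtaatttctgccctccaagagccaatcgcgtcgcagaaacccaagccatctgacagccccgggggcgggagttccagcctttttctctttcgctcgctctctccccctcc

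Rspo2, the R-spondin ligand of the set, was lowest in AIA-cold. It stood at -1.52, -1.46 and -1.77 in AIA-cold-WTD and at -2.86, -1.84 and -2.02 in AIA-cold. AIA-hot-WTD arrays had levels of -1.87, -1.81 and -2.05, and AIA-hot arrays levels of -1.17, -1.43 and -1.16. AIA arrays gave -1.34, -0.94 and -0.91, and control arrays -1.45, -1.38 and -1.11. The 3 AIA-cold arrays lay below every array of AIA-cold-WTD, AIA-hot, AIA and control and overlapped with AIA-hot-WTD, the next lowest group. As a description, AIA-cold differed from control by -0.93 ± 0.22 (log2, SE), from AIA by -1.17 ± 0.22 and from AIA-hot by -0.99 ± 0.22. Replicate 1 was the lowest array, and without it the difference from control was -0.62.

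Ptk7, a membrane pseudokinase that takes part in Wnt signalling and planar cell polarity, followed the same order at the bottom. It stood at -1.39, -1.71 and -1.34 in AIA-cold-WTD and at -2.65, -2.80 and -2.09 in AIA-cold. In AIA-hot-WTD it stood at -2.18, -1.62 and -1.92, and in AIA-hot at -1.11, -1.07 and -1.66. AIA arrays gave -1.15, -1.41 and -1.74, and control arrays -1.08, -1.36 and -1.19. As for Rspo2, the AIA-cold arrays overlapped with AIA-hot-WTD and lay below the 12 arrays of the other 4 groups. AIA-cold differed from control by -1.31 ± 0.23, from AIA by -1.08 ± 0.23 and from AIA-hot by -1.24 ± 0.23, again as a description.

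**Figure D1:**
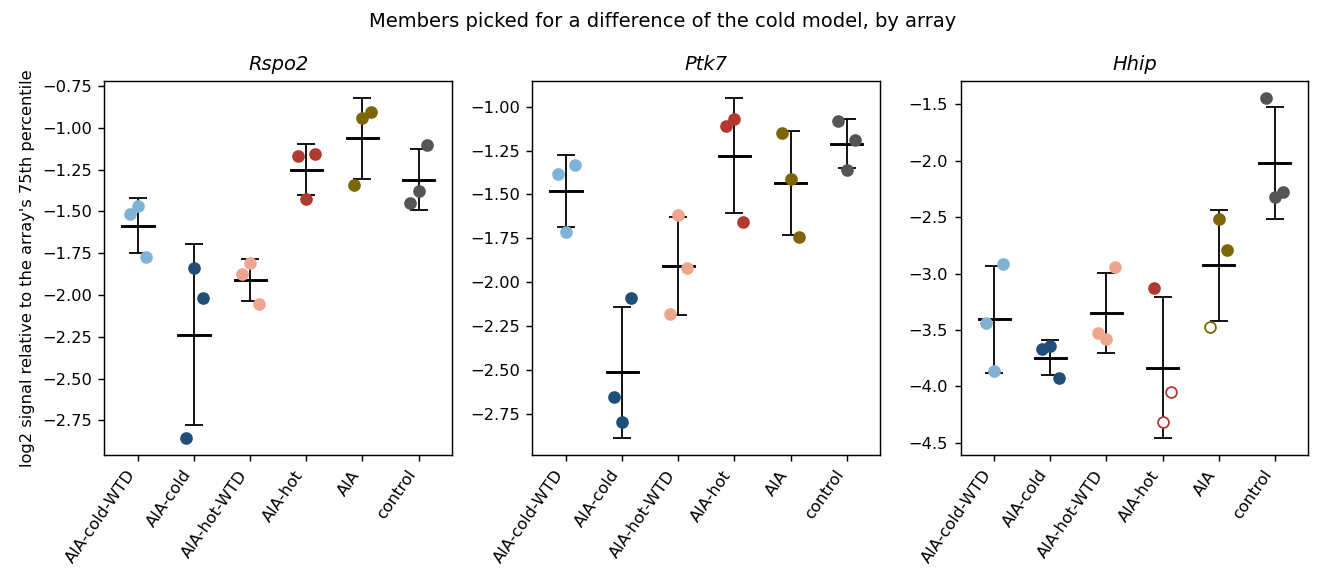
Levels of Rspo2, Ptk7 and Hhip (y axis, log2 signal relative to the array's 75th percentile) in the 6 groups (x axis), 1 point per array, with the mean (line) and SD (bars, n = 3); open points were not well above background. Rspo2 and Ptk7 are lowest in AIA-cold with AIA-hot-WTD next, and all 15 arthritis arrays lie below the 3 controls for Hhip. All 3 genes were picked for differences of the cold model.

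All 3 AIA-cold arrays shared slide 4 with AIA-cold-WTD replicate 1 and with no array of AIA, AIA-hot or control, so for those comparisons slide and group cannot be told apart. All 3 controls lay on slide 1 with AIA replicate 1 and no array of the cold and hot groups. For every gene, slide and group therefore cannot be told apart in AIA-cold-WTD against control either. AIA-hot and AIA-hot-WTD are linked to control only through AIA arrays on slides 1 and 2. Within slide 4, AIA-cold-WTD replicate 1 lay 0.72 above the mean of the AIA-cold arrays for Rspo2 and 1.13 above it for Ptk7. The mean of the synovial lining markers ran from 2.52 to 2.74 in AIA-cold-WTD, from 1.98 to 2.69 in AIA-cold, from 2.56 to 2.89 in AIA-hot-WTD, from 2.56 to 2.98 in AIA-hot, from 2.31 to 3.11 in AIA and from 2.57 to 3.32 in control. Its lowest array, AIA-cold replicate 1, was also the lowest for Rspo2. The part of these markers in the Rspo2 and Ptk7 values was not tested.

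Outside the comparisons that chose them, Rspo2 and Ptk7 gave no call. In AIA-hot-WTD against control, Rspo2 differed by -0.60 ± 0.22 and Ptk7 by -0.70 ± 0.23, with adjusted p = 0.257 and 0.203 by limma. With slide as a fixed block these were -1.16 and 0.30, so Ptk7 changed sign. In AIA-cold-WTD they stood near control, at -0.27 ± 0.22 and -0.27 ± 0.23 (adjusted p = 0.571 and 0.588). In AIA-hot the differences from control were 0.06 ± 0.22 for Rspo2 and -0.07 ± 0.23 for Ptk7, with 95% intervals from -0.41 to 0.54 and from -0.55 to 0.42 (adjusted p = 0.930 and 0.921). In AIA they were 0.25 ± 0.22 and -0.22 ± 0.23 (adjusted p = 0.766 and 0.777). The 2 positive values of Rspo2 changed sign with normexp background correction, to -0.20 in AIA-hot and -0.05 in AIA. These comparisons share the control arrays.

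Sfrp1, a secreted frizzled-related protein that binds Wnt proteins, was lowest in control. It stood at 0.92, -0.23 and -0.31 in AIA-cold-WTD and at 0.37, -0.25 and 0.70 in AIA-cold. In AIA-hot-WTD it stood at 0.39, 0.66 and 0.11, and in AIA-hot at 1.87, 1.29 and -0.11. AIA arrays gave -0.34, -0.26 and 0.08, and control arrays -0.48, -0.32 and -0.40. The controls lay below every array of the 4 cold and hot groups, though by little for AIA-cold-WTD, and overlapped with AIA. No array of these 4 groups shared a slide with a control. The differences from control were 0.52 ± 0.43 in AIA-cold-WTD, 0.67 ± 0.43 in AIA-cold, 0.78 ± 0.43 in AIA-hot-WTD, 1.41 ± 0.43 in AIA-hot and 0.22 ± 0.43 in AIA, and none passed (adjusted p from 0.220 to 0.864 by limma). The AIA-hot group was split, with replicate 3 inside the range of the AIA arrays. Without that array AIA-hot differed from control by 1.97 (adjusted p = 0.041), and over all alternatives this adjusted p ran from 0.041 to 0.859. Against AIA, AIA-hot differed by 1.19 ± 0.43 (adjusted p = 0.878), and with slide as a fixed block by 1.67 (adjusted p = 0.036), a value that rests on slide 2 with its 2 arrays of each group. Over all alternatives that adjusted p ran from 0.036 to 1.00.

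Sfrp2 and Sfrp4, of the same family, varied within groups about as much as between them. Sfrp2 ran from 2.54 to 3.52 in AIA-cold-WTD, from 2.21 to 4.13 in AIA-cold, from 2.89 to 3.27 in AIA-hot-WTD, from 2.47 to 3.61 in AIA-hot, from 2.49 to 2.75 in AIA and from 1.20 to 2.94 in control. Sfrp4 ran from 2.37 to 3.50 in AIA-cold-WTD, from 2.60 to 3.49 in AIA-cold, from 2.60 to 3.27 in AIA-hot-WTD, from 1.94 to 3.86 in AIA-hot, from 1.72 to 2.62 in AIA and from 0.80 to 2.61 in control. The lowest array for both was control replicate 1. Sfrp4 differed from control by 0.84 ± 0.52 in AIA-cold-WTD, 1.13 ± 0.52 in AIA-cold, 1.06 ± 0.52 in AIA-hot-WTD, 1.06 ± 0.52 in AIA-hot and 0.19 ± 0.52 in AIA. Without control replicate 1 these 5 differences were 0.28, 0.56, 0.49, 0.50 and -0.38, so the last changed sign. For Sfrp2 they were 0.70, 0.78, 0.94, 1.00 and 0.39 with all arrays, each ± 0.50, and 0.20, 0.29, 0.44, 0.50 and -0.10 without that control. None passed in either gene with all arrays, and the adjusted p lay between 0.264 and 0.909. The other kept probes followed the one used closely across the 18 arrays, with r of 0.996 and 0.985 for Sfrp2 and 0.991 for Sfrp4.

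Dkk3, a secreted glycoprotein of the dickkopf family, had the second widest range of the members. It stood at 3.67, -0.09 and -0.03 in AIA-cold-WTD and at 0.81, 0.03 and 1.78 in AIA-cold. AIA-hot-WTD arrays had levels of 0.20, 0.85 and 0.91, and AIA-hot arrays levels of 2.74, 3.32 and -0.81. AIA arrays gave -0.14, -0.24 and 0.55, and control arrays 1.49, -0.07 and 1.53. High and low arrays stood side by side in AIA-cold-WTD and AIA-hot, so no group lay apart from control. The differences from control were 0.20 in AIA-cold-WTD, -0.11 in AIA-cold, -0.33 in AIA-hot-WTD, 0.77 in AIA-hot and -0.92 in AIA, each ± 1.04 (adjusted p from 0.791 to 0.968 by limma). In AIA-cold the difference changed sign with normexp background correction, to 0.11, and without control replicate 1, to 0.15. Single arrays and the slide moved the other differences further. AIA-cold-WTD was at -1.04 without its replicate 1, AIA-hot ran from -0.02 without its replicate 2 to 2.05 without its replicate 3, and AIA-hot-WTD was at 3.22 with slide as a fixed block. The dimmer second probe of Dkk3 gave differences from control of -0.26, -0.08, -0.64, 0.07 and -1.42 in the same order of groups. The sign in AIA-cold-WTD thus changed (r = 0.931 between probes). The largest gap between the probes over all comparisons was 0.87, in the WTD effect of the cold model minus that of the hot model.

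**Figure D2:**
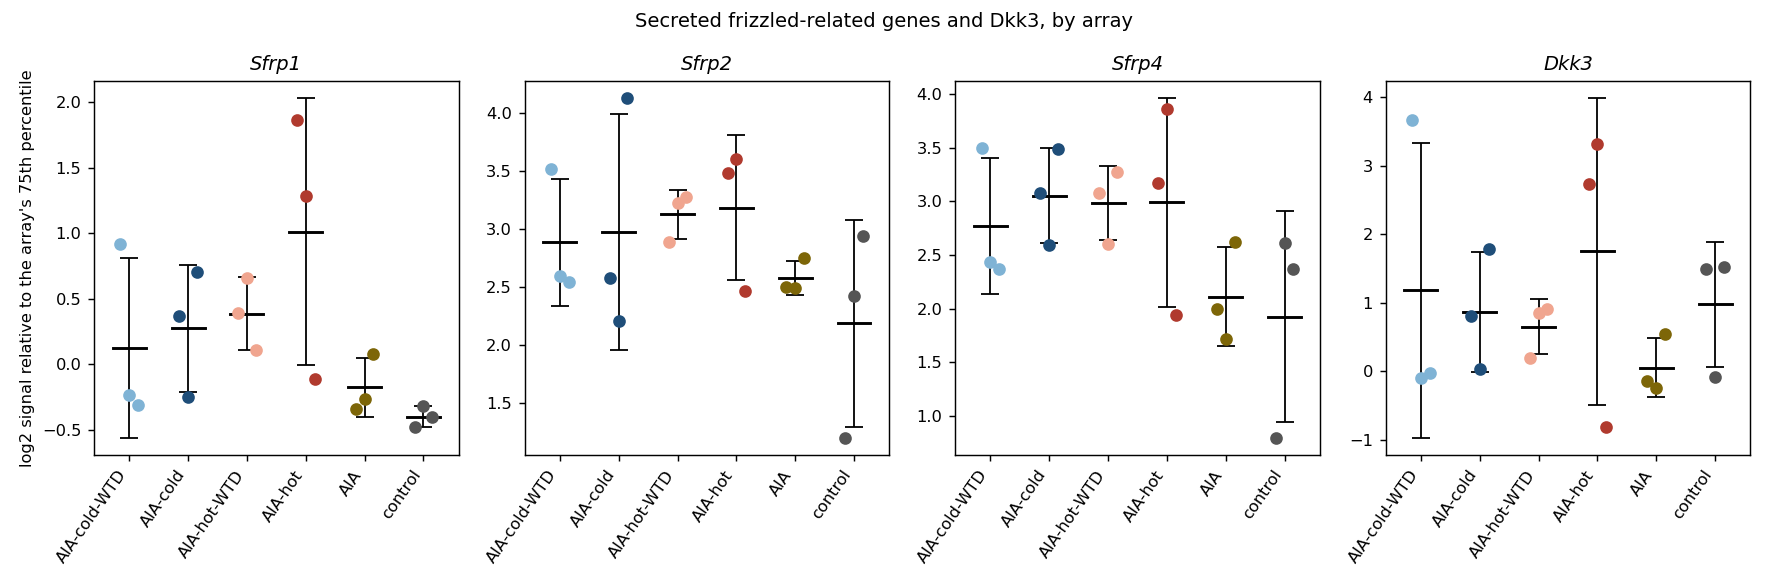
Levels of Sfrp1, Sfrp2, Sfrp4 and Dkk3 (y axis, log2 signal relative to the array's 75th percentile) in the 6 groups (x axis), 1 point per array, with the mean (line) and SD (bars, n = 3). Dkk3 spans from -0.81 to 3.32 among the AIA-hot arrays alone, and Sfrp1 is tight in control, between -0.48 and -0.32.

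The same 4 arrays were highest for Dkk3, for Sfrp1 and for Sfrp2. They were AIA-cold-WTD replicate 1, AIA-cold replicate 3 and AIA-hot replicates 1 and 2, and for Sfrp4 they were among the 5 highest. The mean of the fibroblast markers, with 10 of 10 tested, was 4.45, 4.10, 4.48 and 4.42 on these arrays and lay between 3.20 and 3.85 on the other 14. By group it ran from 3.20 to 4.45 in AIA-cold-WTD, from 3.56 to 4.10 in AIA-cold, from 3.46 to 3.85 in AIA-hot-WTD, from 3.27 to 4.48 in AIA-hot, from 3.21 to 3.78 in AIA and from 3.34 to 3.80 in control. Adipocyte markers, with 8 of 8 tested, were low on the same arrays, at 2.52, 4.27, 4.72 and 3.67, and at 3.51 on control replicate 1, against 5.05 to 5.78 on the other 13. The part of these markers in the Sfrp and Dkk3 values was not tested.

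Wif1, a secreted inhibitor that binds Wnt proteins, ranged over 8.93 log2 units, more than any other member. It stood at -2.82, -1.08 and -0.07 in AIA-cold-WTD and at -1.12, -0.81 and 0.17 in AIA-cold. In AIA-hot-WTD it stood at -1.91, 0.53 and -0.63, and in AIA-hot at -2.12, -3.32 and -1.65. AIA arrays gave -1.30, -1.65 and -1.93, and control arrays 5.61, -1.99 and 0.91. A single array, control replicate 1, set the top of the range, which was 4.24 without it. The differences from control were -2.84 in AIA-cold-WTD, -2.10 in AIA-cold, -2.18 in AIA-hot-WTD, -3.88 in AIA-hot and -3.14 in AIA, each ± 1.35, and none passed (adjusted p from 0.279 to 0.756 by limma). Without control replicate 1 they were -0.79, -0.05, -0.13, -1.83 and -1.09. The AIA-cold arrays lay above all AIA-hot arrays, by 1.78 ± 1.35 in the mean (adjusted p = 0.981), and above all AIA arrays, by 1.04 ± 1.35 (adjusted p = 0.894).

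Hhip, a membrane decoy that binds hedgehog proteins, was highest in control. It stood at -3.44, -3.86 and -2.91 in AIA-cold-WTD and at -3.67, -3.64 and -3.92 in AIA-cold. In AIA-hot-WTD it stood at -3.53, -3.58 and -2.94, and in AIA-hot at -3.13, -4.32 and -4.05. AIA arrays gave -3.47, -2.52 and -2.79, and control arrays -1.44, -2.32 and -2.28. Every arthritis array lay below every control, with AIA replicate 2 the nearest. The probe was dim: it was well above background on 1 of 3 AIA-hot arrays, on 2 of 3 AIA arrays and on all arrays of the other groups. The difference from control was -1.73 ± 0.35 in AIA-cold, given as a description. In the other groups it was -1.39 ± 0.35 in AIA-cold-WTD (adjusted p = 0.130 by limma), -1.33 ± 0.35 in AIA-hot-WTD (adjusted p = 0.125), -1.82 ± 0.35 in AIA-hot (adjusted p = 0.076, and 0.058 to 0.859 over all alternatives) and -0.91 ± 0.35 in AIA (adjusted p = 0.756). With normexp background correction the differences shrank to -0.96 in AIA-cold-WTD, -1.01 in AIA-cold, -0.85 in AIA-hot-WTD, -0.91 in AIA-hot and -0.56 in AIA. Without control replicate 1, the highest array, they were -1.10, -1.44, -1.05, -1.53 and -0.63. Hhip was picked for a difference of the cold model, and all these comparisons share the controls with AIA-cold against control. The separation from control and its p-values are therefore not free of the pick.

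Gli1, the transcription factor that hedgehog signalling induces, also had its highest array in control. It stood at 0.38, -0.53 and -0.56 in AIA-cold-WTD and at -0.84, -0.95 and -0.26 in AIA-cold. AIA-hot-WTD arrays had levels of -0.63, -0.15 and -0.67, and AIA-hot arrays levels of -0.50, -0.30 and -0.86. AIA arrays gave -0.14, -0.42 and -0.48, and control arrays 2.03, 0.06 and -0.22. AIA-cold and AIA-hot lay below all controls, by a narrow margin from control replicate 3, and the other groups overlapped with control. The differences from control were -0.86 in AIA-cold-WTD, -1.30 in AIA-cold, -1.10 in AIA-hot-WTD, -1.18 in AIA-hot and -0.97 in AIA, each ± 0.45, with adjusted p from 0.150 to 0.756 by limma. Without control replicate 1 they were -0.16, -0.60, -0.40, -0.47 and -0.26. The second kept probe followed the one used with r = 0.967.

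Ptch1, the hedgehog receptor, took another course. It ran from -2.36 to -1.95 in AIA-cold-WTD, from -2.32 to -1.39 in AIA-cold, from -2.19 to -1.76 in AIA-hot-WTD, from -2.89 to -1.52 in AIA-hot, from -3.23 to -2.62 in AIA and from -3.23 to -2.26 in control. The AIA-hot-WTD arrays lay above all controls and the AIA-cold arrays above all AIA arrays. The differences from control were 0.56 in AIA-cold-WTD, 0.82 in AIA-cold, 0.78 in AIA-hot-WTD, 0.34 in AIA-hot and -0.19 in AIA, each ± 0.35, and with normexp correction they were -0.36, -0.14, -0.13, -0.26 and -0.38, so the first 4 changed sign. None passed (adjusted p from 0.234 to 0.864 by limma). Against AIA, AIA-cold differed by 1.00 ± 0.35 (adjusted p = 0.406) and by 0.24 with normexp. Ptch1 was not well above background on AIA replicate 3 and control replicate 1. Its 3 highest arrays, AIA-cold replicate 2, AIA-hot replicate 3 and AIA-hot-WTD replicate 1, had erythroid marker means of 4.47, 4.30 and 4.03 (3 of 6 markers tested). That mean ran from 0.25 to 4.12 in AIA-cold-WTD, from 2.15 to 4.47 in AIA-cold, from 4.03 to 4.34 in AIA-hot-WTD, from 1.30 to 4.30 in AIA-hot, from 1.31 to 2.30 in AIA and from -1.43 to 2.90 in control, and its part in the Ptch1 values was not tested.

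**Figure D3:**
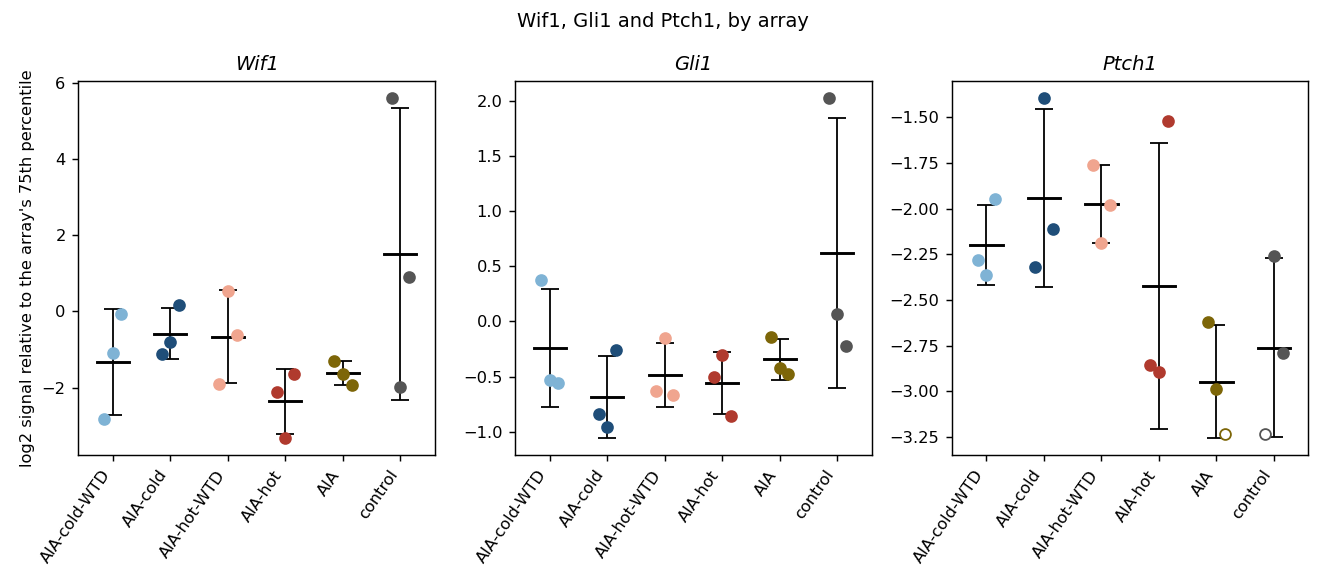
Levels of Wif1, Gli1 and Ptch1 (y axis, log2 signal relative to the array's 75th percentile) in the 6 groups (x axis), 1 point per array, with the mean (line) and SD (bars, n = 3); open points were not well above background. Control replicate 1 stands alone at 5.61 for Wif1 and 2.03 for Gli1, while for Ptch1 it and AIA replicate 3 are the lowest arrays, both at -3.23.

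Wif1, Gli1 and Hhip were each highest on control replicate 1, the array with the highest cartilage markers. That array was also the highest for bone, endothelial, and smooth muscle and pericyte markers, with means of 1.80, 2.74 and 3.43. No other array was above 1.48, 1.68 and 2.62 in these lists. With 9 of 12 cartilage markers tested, their mean ran from -0.03 to 0.53 in AIA-cold-WTD, from -0.27 to 1.35 in AIA-cold, from -1.88 to 1.75 in AIA-hot-WTD, from -0.85 to 0.40 in AIA-hot, from -1.42 to -0.86 in AIA and from -1.76 to 4.94 in control. The next highest arrays, AIA-hot-WTD replicate 2 and AIA-cold replicate 3, had Wif1 at 0.53 and 0.17 and Gli1 at -0.15 and -0.26. Hhip stood at -3.58 and -3.92 on these arrays, below its median of -3.46 over all arrays. The part of cartilage markers, or of these other lists, in the Wif1, Gli1 and Hhip values was not tested. The values without control replicate 1 stand beside them above.

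**Figure D4:**
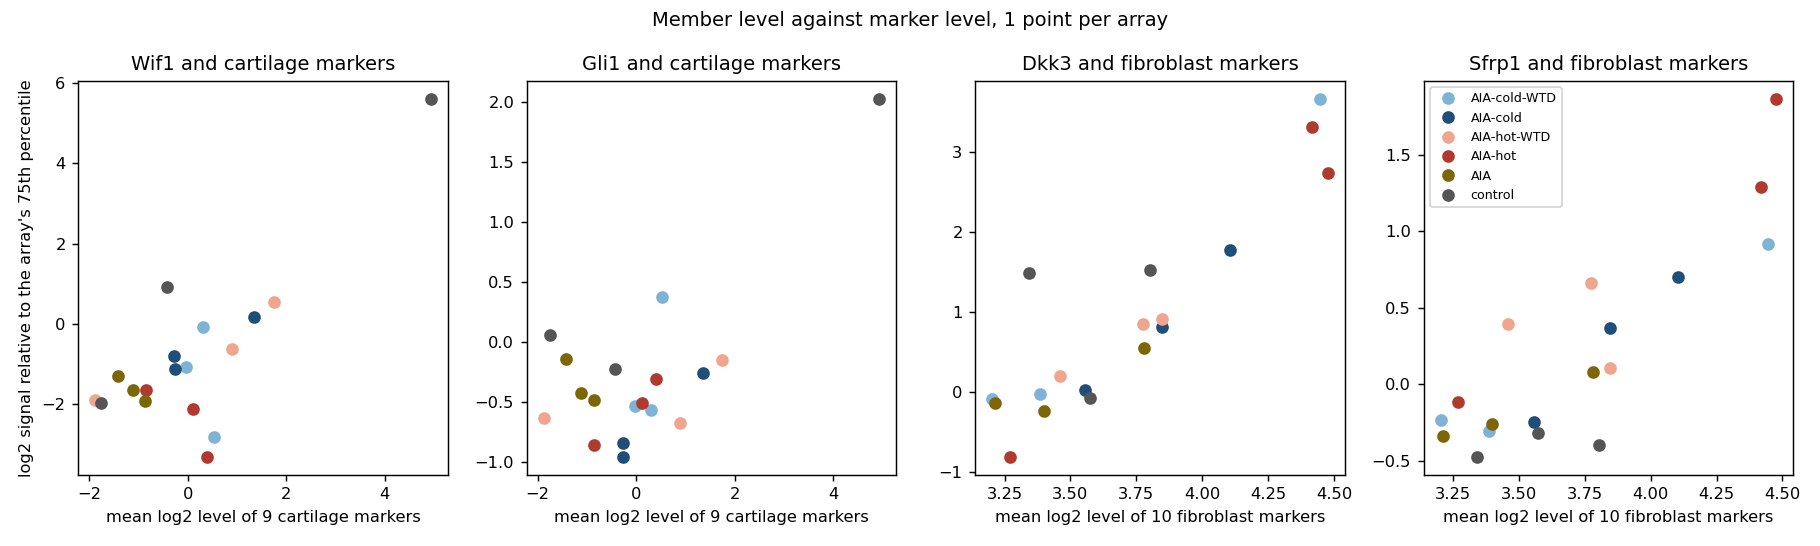
Level of a member (y axis, log2 signal relative to the array's 75th percentile) against the mean log2 level of a marker list (x axis), 1 point per array coloured by group, for Wif1 and Gli1 with 9 cartilage markers and for Dkk3 and Sfrp1 with 10 fibroblast markers. Control replicate 1 is the isolated point at a cartilage mean of 4.94, and the 4 arrays with fibroblast means above 4 are the 4 highest for Dkk3 and for Sfrp1.

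Whether members of 1 family or 1 pathway varied together was asked for 6 pairs over the 18 arrays, with two-sided permutation p-values (100000 resamples) adjusted over the 6 pairs. The frizzled-related genes varied together. Sfrp2 and Sfrp4 had r = 0.86 (adjusted p = 0.00012) and rho = 0.80 (adjusted p = 0.00039). Sfrp1 and Sfrp2 had r = 0.74 (adjusted p = 0.00105) and rho = 0.78 (adjusted p = 0.00044), and Sfrp1 and Sfrp4 had r = 0.72 (adjusted p = 0.00134) and rho = 0.83 (adjusted p = 0.00036). With the 2 arrays farthest from the median of the x axis left out, the 3 values of r were 0.76, 0.76 and 0.75, and on deviations from the group means 0.82, 0.67 and 0.65.

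The values of the hedgehog targets depended more on the setting. Gli1 and Hhip stayed above 0 in every setting run, and the pairs with Ptch1 did not keep the sign of r. Hhip was picked on arrays that enter these values, so its pairs are a description with no p. Gli1 and Hhip had r = 0.62 and rho = 0.43. Their r was 0.34 with the 2 farthest arrays left out, 0.24 without control replicate 1, 0.22 on deviations from the group means and 0.78 with normexp correction (rho = 0.55). Ptch1 and Hhip had r = -0.49 and rho = -0.41, with r = -0.29 without the 2 farthest arrays, -0.35 without control replicate 1, -0.26 on deviations and 0.50 with normexp correction (rho = 0.13).

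Gli1 and Ptch1, neither of them picked, had r = -0.52 (adjusted p = 0.0221) and rho = -0.54 (adjusted p = 0.0353). Without control replicate 1 r was -0.39 (adjusted p = 0.187 by permutation) and rho -0.45 (adjusted p = 0.107). Without the 2 farthest arrays r was -0.50 (adjusted p = 0.0772) and on deviations from the group means -0.48 (adjusted p = 0.0668), with rho = -0.62 (adjusted p = 0.0111). With normexp correction r was 0.44 (adjusted p = 0.072) and rho -0.03 (adjusted p = 0.909). Within slides no value was computed, since a slide held at most 4 arrays.

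Counted over all members, calls were few. In AIA-cold against control limma called 0.534% of 23607 genes and, of the members, Ptk7 and Hhip, both lower and both picked on this contrast, so nothing is read from that count. Both calls were lost with slide as a random block, and also when any of AIA-cold replicates 1 and 2 and control replicate 1 was left out. Of the 7 members not picked, 0 were called there, and Sfrp4, Gli1 and Ptch1 (3 of 7) had an unadjusted p under 0.05, as did 4406 of 23607 genes. In the other comparisons with control 0 of 10 members were called, where limma called 0.0297% of genes in AIA-cold-WTD, 0.0805% in AIA-hot-WTD, 0.0551% in AIA-hot and 0% in AIA. At an unadjusted p under 0.05 there were 1 member in AIA-cold-WTD, 5 in AIA-hot-WTD, 4 in AIA-hot and 2 in AIA, beside 3560, 3195, 2857 and 1484 of the genes tested. The 10 members include those picked, and the controls are shared with AIA-cold against control, so nothing is read from these counts.

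Members whose arrays lay wholly above or below those of control are given beside the same share of all genes. There were 3 of 10 in AIA-cold-WTD, where 16.3% of all genes lay apart, 5 of 10 in AIA-hot-WTD (18% of genes), 3 of 10 in AIA-hot (13.1%) and 1 of 10 in AIA (10.7%). In AIA-cold 2 of the 7 members not picked lay apart (24.9% of genes). Hhip was among them in each of the 4 comparisons over 10 members, with Rspo2 in AIA-cold-WTD and Rspo2 and Ptk7 in AIA-hot-WTD. These were picked members, and the comparisons share the controls with AIA-cold against control, so nothing is read from the counts of 10. The members not picked that lay apart were Sfrp1 in AIA-cold-WTD, Sfrp1 and Ptch1 in AIA-hot-WTD, Sfrp1 and Gli1 in AIA-hot and none in AIA. The median difference over the 10 members was -0.03 in AIA-cold-WTD, -0.46 in AIA-hot-WTD, 0.20 in AIA-hot and -0.20 in AIA, beside all-gene medians between -0.06 and -0.03. None is given for AIA-cold, where 3 of the 10 were picked for their difference. With normexp correction the all-gene median shifted to between -0.21 and -0.14 in the 5 comparisons with control.

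**Figure D5:**
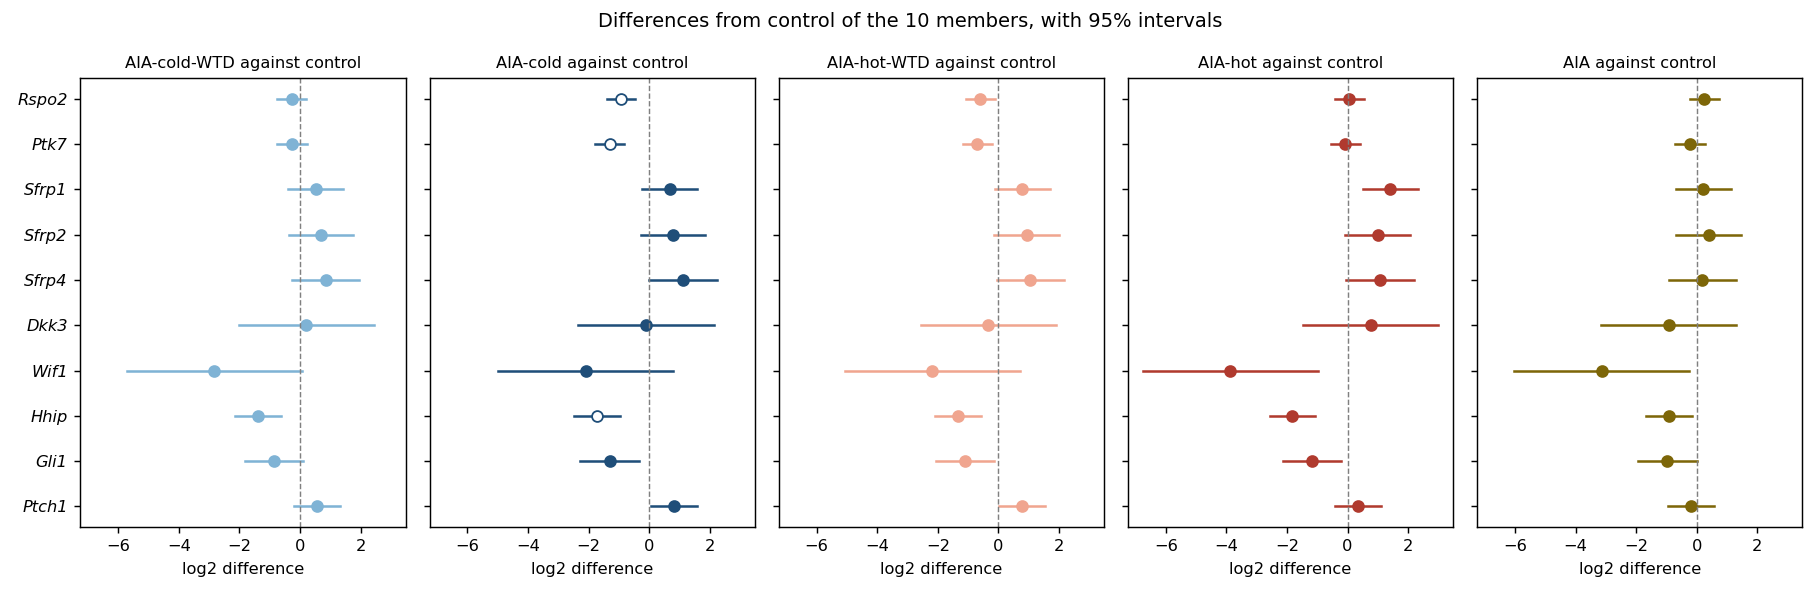
Log2 difference from control (x axis) of the 10 members (y axis) in the 5 arthritis groups, with 95% intervals from the fit of 18 arrays; open points mark the 3 members in the comparison they were picked on. Ptk7, Wif1, Hhip and Gli1 lie left of 0 in all 5 panels, and the interval of Wif1 is the widest in each.

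Between the arthritis groups, limma called 0 of the 7 members not picked in AIA-cold against AIA (0% of all genes called). There 1 of 7 had an unadjusted p under 0.05, beside 2136 of 23607 genes. In AIA-cold against AIA-hot it called 0 of 7 (0.00847% of all genes), with 0 of 7 under 0.05 unadjusted, beside 1296 of 23606 genes. In AIA-hot against AIA it called 0 of 10 (0% of all genes). Hhip and Sfrp1, 2 of 10, had an unadjusted p under 0.05, beside 1210 of 23606 genes. Hhip was picked for a difference of the cold model, and AIA-cold was also set against these AIA and AIA-hot arrays. Its p and the count of 10 may therefore not be free of the pick. Sfrp1 differed by 1.19 ± 0.43. For Hhip the value of -0.91 rests in part on background, since it was well above background on 1 of 3 AIA-hot and 2 of 3 AIA arrays, and it was -0.35 with normexp correction. Arrays lay apart for 2 of 7 in AIA-cold against AIA (24.2% of all genes), for 1 of 7 in AIA-cold against AIA-hot (15%) and for 0 of 10 in AIA-hot against AIA (9.91%).

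WTD was compared with its model in each form. In AIA-cold-WTD against AIA-cold, Rspo2 and Ptk7 lay higher with no overlap, by 0.65 ± 0.22 and 1.04 ± 0.23, and Hhip by 0.34 ± 0.35, all as a description. Of the 7 other members 0 were called by limma, where 0.00847% of all genes were. At an unadjusted p under 0.05 there were 0 of the 7, beside 1438 of 23607 genes. None of the 7 lay apart (14.4% of all genes). Their differences ran from -0.74 ± 1.35 for Wif1 to 0.44 ± 0.45 for Gli1. Dkk3 differed by 0.31 ± 1.04, and without AIA-cold-WTD replicate 1 by -0.93.

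In AIA-hot-WTD against AIA-hot, no member passed. Rspo2 differed by -0.66 ± 0.22 with no overlap and Ptk7 by -0.63 ± 0.23 with overlap at AIA-hot replicate 3. Both had an unadjusted p under 0.05 (0.0097 and 0.0148) and an adjusted p = 0.999 by limma. Both genes were picked for differences of the cold model, and AIA-cold was also set against these AIA-hot arrays. Their separation and p-values here may therefore not be free of the pick. Without adjustment 539 of 23606 genes were under 0.05 here. In this comparison limma called 0 of 10 members and 0% of all genes. The picked gene Rspo2, 1 of 10 members, lay apart, beside 7.08% of all genes, so nothing is read from that count. The other 8 differences ran from -1.10 ± 1.04 for Dkk3 to 1.70 ± 1.35 for Wif1. Set against each other, the WTD effect in the cold model minus that in the hot model was 1.31 for Rspo2 and 1.66 for Ptk7 as a description. For this contrast limma called 0 of the 7 members not picked (0% of all genes). At an unadjusted p under 0.05 there were 0 of 7, beside 990 of 23606 genes. Within slide 3, which held all AIA-hot-WTD arrays and AIA-hot replicate 3, the difference was -0.75 for Rspo2 and -0.25 for Ptk7. Within slide 3 Sfrp1, Sfrp2, Sfrp4 and Dkk3 lay higher, by 0.50, 0.66, 1.05 and 1.47, where over all arrays they differed by -0.63, -0.06, 0.00 and -1.10.

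Around the members, 118 further genes of both pathways were listed, of which 94 were on the array and 71 were tested. limma called 0 of the 71 in each of the 11 comparisons, while without adjustment 9 in AIA-cold and 12 in AIA-hot, each set against control, were under 0.05, beside 4406 of 23607 and 2857 of 23606 genes. In AIA-cold against control, 4 of 6 Wnt ligands lay higher (median 0.25), as did 4 of 10 Wnt receptors (median -0.10), 1 of 3 genes of the R-spondin axis (-0.23), 1 of 5 other Wnt inhibitors (-0.38), 5 of 14 Wnt transducers (-0.14) and 6 of 11 Wnt targets (0.17). On the hedgehog side 2 of 5 ligand and release genes (-0.28), 1 of 3 receptors (-0.37), 4 of 10 transducers (-0.10) and 2 of 6 other targets (-0.28) lay higher. The median over all genes was -0.04. In AIA-hot against control the medians were 0.07, -0.06, -0.54, -0.11, -0.04 and 0.25 for the 6 Wnt lists in that order, and -0.23, -0.06, -0.14 and -0.47 for the 4 hedgehog lists, beside -0.05 for all genes.

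Of 21 genes of these lists chosen to be named, 12 were tested. Axin2, a feedback gene of canonical Wnt signalling, differed from control by -0.85 in AIA-cold-WTD, -1.0 in AIA-cold, -0.97 in AIA-hot-WTD, -0.88 in AIA-hot and -0.93 in AIA, each ± 0.36, without passing (adjusted p from 0.164 to 0.756 by limma). Its highest array was control replicate 1 at -1.53, and without it the differences were -0.53, -0.69, -0.66, -0.57 and -0.62. Frzb, another Wnt-binding inhibitor, stood at 1.81 on that array and between -3.09 and -0.89 on the other 17.

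The other named genes are given for AIA-cold against control. Rspo3, the other R-spondin tested, differed by -0.23 (-0.04 without control replicate 1), and the R-spondin receptor gene Lgr4 by 0.18 (0.35 without it). Gli2 and Gli3, transcription factors of the hedgehog pathway, differed by -0.24 and -0.67 (-0.37 and -0.30 without it). The ligand gene Ihh differed by -0.43 (-0.13 without it) and the co-receptor gene Cdon by -0.46 (-0.49 without it). Signs that turned without control replicate 1 were those of Lgr5 (-0.51, and 0.61 without it), Frzb (-0.98, and 0.25 without it), Smo (-0.37, and 0.14 without it) and Wnt5a (0.22, and -0.29 without it). With normexp correction Wnt5a was at -0.45 and the β-catenin gene Ctnnb1 at 0.14, where Ctnnb1 was at -0.25 otherwise and at -0.12 without control replicate 1.

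Genes with the most similar pattern were ranked by Pearson's r over the 18 arrays, among 11955 other named genes, as a description. Rspo2 was most like Aldh1a3 (r = 0.79), Fas and Itgb8 (0.78 each), Cxxc5 (0.76) and Sema5a (0.75). Ptk7 was most like Flot1 (0.91) and Gsk3b (0.83), and Hhip like Tspan2 (0.89) and Rps6ka2 (0.87). On deviations from the group means these values were lower, at 0.61 for Aldh1a3, 0.66 for Flot1, 0.49 for Gsk3b and 0.73 for Tspan2.

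Among the secreted inhibitors, Sfrp1 was most like Megf6 (0.94) and the fibrillin gene Fbn2 (0.91), Sfrp2 like Il11ra1 (0.90) and Dennd1c (0.90), and Dkk3 like the frizzled gene Fzd2 (0.97) and Atp10a (0.96). Sfrp4 was most like Cd74 (0.95) and the MHC class II genes RT1-Bb (0.95), RT1-Da (0.95) and RT1-Db2 (0.95). On deviations from the group means the values for Megf6, Il11ra1, Fzd2 and Cd74 were 0.92, 0.95, 0.98 and 0.94. Wif1 was most like Snorc, a chondrocyte gene, at 0.92, and Gli1 like the dystrophin gene Dmd at 0.93. Without control replicate 1 these were 0.73 and 0.73. Ptch1 was most like Rbm38 at 0.91, and at 0.92 without that array.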

How the data were processed

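RNA of 18 synovial samples was hybridised to 1-colour Agilent rat arrays (Cy3). Per the file headers, the deposited intensity is the processed signal of Feature Extraction 10.7, background-subtracted and detrended with surrogate values for dim spots, and not normalized between arrays. The authors' deposited series table holds values of unstated scale, taken as log2 because they follow log2 of the processed signal, and served as an alternative only.

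From the intensities, log2 signal minus each array's 75th percentile was computed, spots of a probe were averaged, and control and flagged spots were left out. A probe was kept where the scanner called it well above background throughout some group of 3 arrays (28271 of 41012), and the brightest kept probe stood for its gene. Names came from RefSeq where they matched (18028 probes by accession, 3168 by symbol, 400 by synonym) and otherwise from the array. limma 3.58.1 (R 4.3.3) fitted all 6 groups with no covariate, with 12 residual and 2.29 prior degrees of freedom, and 11 contrasts were adjusted by Benjamini-Hochberg over all genes, with calls at an adjusted p under 0.05. On simulated data for AIA-cold against control, 44% of log2 changes of 1 and 79% of changes of 2 were recovered, with 7 false calls among 23558 genes. The simulated noise was independent between genes and arrays and held no slide effect, so these figures do not cover differences between slides.

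Members, lists and tests were chosen with earlier results of these data known. The genes named are all 10 members, 21 genes of the lists where measured, any list gene called, and for each member those with the highest r. Alternatives changed background correction, normalization, filter, probe rule, slide, the groups fitted or the arrays included.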

Additional observations from a re-analysis of the deposited data

Results flagged for a closer look

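Over all arrays the mean effect of WTD had opposite signs in the cold and hot models for 3 members, in that every WTD array of one model lay on one side of its model's mean and every WTD array of the other model on the other. The share of all genes that met this rule was not counted, so nothing is read from the number of members. For Rspo2 the effect in the cold model minus that in the hot model was 1.31, and for Ptk7 it was 1.66. These differences were not tested, because both genes were picked on the AIA-cold arrays that the contrast holds. For Ptch1 it was -0.70 (adjusted p = 0.988 by limma) and -0.35 with normexp background correction, but 0.12 with slide as a fixed block. Within slides the Ptch1 difference had the same sign in both models, at -0.34 in the cold model (slide 4) and at -0.46 in the hot model (slide 3).

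The Gli1 probe A_43_P16047 was too dim for the comparisons. It was well above background on 3 arrays outside control and on 0 control arrays.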

How the results depend on the processing

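Of 2908 values of the members under the alternatives, 2883 kept their direction and side of the threshold or were uncalled in both, 20 lost a call, 5 gained one and 0 called values changed sign, while 90 uncalled values did. The calls of Ptk7 and Hhip in AIA-cold against control (2 members) became 1 among probes well above background on all 18 arrays, 0 with slide as a random block, 0 with only the groups compared and 3 (with Rspo2) under normexp background correction. Leaving out 1 array gave 0 to 2 calls there, with 0 without AIA-cold replicate 1, AIA-cold replicate 2 or control replicate 1. Over all genes 126 were called there, 0 with slide as a random block and 0 with only the groups compared. Leaving out 1 array gave 0 to 1 members in AIA-hot against control and 0 to 1 in AIA-cold against AIA. With no filter on dim probes 1 member, Hhip, was called in AIA-cold-WTD against control, and with slide as a fixed block 1, Sfrp1, in AIA-hot against AIA. The correlation of Gli1 with Ptch1 was 0.44 and that of Ptch1 with Hhip 0.50 with normexp background correction, against -0.52 and -0.49. The causes were not tested. No paired analysis was possible because the replicate numbers only name the arrays. Signal over background limits Hhip, Ptch1 and control replicate 1.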
